A study of Mus musculus with 12 samples.

Results

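Solute carriers are membrane proteins that move amino acids, sugars, metals, vitamins, nucleotides and inorganic ions across the plasma membrane and the membranes of organelles. The genes described here are those named Slc, family number, a, member number. The carriers Slc2a1, Slc2a3, Slc16a1, Slc16a3, Slc35a1, Slc7a2 and Slc8a2 were set aside by the selection rule. Of 327 remaining genes of that name in the table, 157 were members, because their log2 CPM (read counts scaled to library size) lay above 0 in at least 2 of 12 libraries. The other 170 stayed below this limit, and 77 of them had no read in any library. All 14079 genes above the limit, out of 55401 in the table, were fitted together, so each member was tested beside the whole transcriptome.

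Sp37A3 is an immature dendritic cell (DC) line from C57BL/6 mouse spleen, grown with GM-CSF and M-CSF. CtrV cells carried the empty CRISPR vector and express Siglec-E, an inhibitory receptor for sialic acid. EKO cells carried the vector with a guide against Siglece and are labelled as knockout; they were a pool of several single-cell clones. Cells of each line were pulsed with ovalbumin (OVA, 0.1 mg/ml for 2 h) or left unpulsed, and all 4 groups of 3 libraries received lipopolysaccharide (LPS) and were harvested after 24 h. The LPS dose was 0.1 ug/ml for pulsed cells and is not given in the sources used here for unpulsed cells. Nothing in the labels says whether the 3 libraries of a group came from separate cultures, so p-values measure the spread between these libraries, which may be technical.

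Library totals ranged from 27116201 to 39698572 counts. Siglece mRNA was higher, not lower, in EKO-labelled libraries (165.8 to 234.9 CPM) than in CtrV libraries (150 to 163.2 CPM). With OVA its log2 fold change was 0.31 (edgeR quasi-likelihood, adjusted p = 0.011), so the transcript does not check the label. The summed level of 11 DC markers was 27540 to 30130 CPM in CtrV against 27650 to 29810 CPM in EKO-labelled libraries. Cd74 made up most of this sum (13940 to 18250 CPM), which hides shifts of single markers. H2-Aa (2517 to 2781 against 3517 to 4063 CPM), H2-Ab1, Irf8, Ptprc and Batf3 were higher in EKO-labelled libraries without overlap. H2-Eb1 was lower without overlap (4047 to 4465 against 3374 to 3668 CPM), and the other DC markers overlapped. Summed macrophage markers (6 of 6 above the limit) were at 1359 to 1550 against 1826 to 2063 CPM, and epithelial markers (2 of 4, mainly Cdh1) at 576.9 to 657.7 against 179 to 207.4 CPM. Summed T cell markers stayed at or below 3.73 CPM and B cell markers at or below 1.07 CPM, and Cd3e, Trac and 4 of 5 fibroblast markers had no read in any library. The part of these shifts in the carrier differences was not tested. The EKO-labelled libraries numbered 1 stood apart from the other EKO-labelled libraries, so counts without both are given beside the main ones.

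Dendritic cells take up amino acids and cystine for protein and glutathione synthesis after LPS, move peptides and metals across their endolysosomal membranes, and hold iron, zinc and copper within narrow limits. Cystine enters through the exchanger Slc7a11, which pairs with the heavy chain Slc3a2. Its gene belongs to those that the factor ATF4 switches on through the amino acid response element when amino acids are short. Zinc and copper carriers are in part under the factor MTF1, which binds the metal response element. The stretches before the start of Slc7a11, Slc7a7 and Slc30a1 are shown because these carriers differed between the lines and hold these elements. They were chosen after their values were seen, from RefSeq windows of 250 bases before the start (GRCm38.p6), and bases inside the annotated gene were left off. In Slc7a11 and Slc7a7 capitals mark TGATGCAA on either strand, and in Slc30a1 the metal response element TGCACNC on the strand opposite to the printed one. The stretches lie at chr3:50443615-50443863 (minus strand), chr14:54417781-54417952 (minus strand) and chr1:191906531-191906766 (plus strand).
Slc7a11: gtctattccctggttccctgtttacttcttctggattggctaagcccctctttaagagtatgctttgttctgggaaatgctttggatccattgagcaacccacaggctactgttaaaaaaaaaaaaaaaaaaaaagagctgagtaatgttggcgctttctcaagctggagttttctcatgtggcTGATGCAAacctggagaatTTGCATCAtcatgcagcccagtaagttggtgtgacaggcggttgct
Slc7a7: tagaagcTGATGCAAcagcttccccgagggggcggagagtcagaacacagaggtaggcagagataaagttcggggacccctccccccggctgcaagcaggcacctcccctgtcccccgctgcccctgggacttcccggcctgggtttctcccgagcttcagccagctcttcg
Slc30a1: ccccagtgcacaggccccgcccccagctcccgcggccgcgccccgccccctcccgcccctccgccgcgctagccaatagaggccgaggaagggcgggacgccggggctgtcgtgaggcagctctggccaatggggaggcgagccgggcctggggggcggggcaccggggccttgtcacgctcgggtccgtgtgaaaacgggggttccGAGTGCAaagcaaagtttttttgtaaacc

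A window was found for 119 of the 157 members. TGATGCAA stood in the window of Slc7a11, Slc7a7 and Slc50a1, 3 of 119 members or 2.52%, against 0.918% of all genes with a window (0.791% of 32851 windows). In Slc7a11 it occurred on the printed strand 66 to 59 bases and on the opposite strand 47 to 40 bases before the start. The metal response element (TGCACNC or TGCGCNC, both strands) was in a window of 41 of 119 members (34.5%, against 23.8% of all genes; 21.4% of windows). The antioxidant response element (TGACNNNGC) was in 23 members (19.3%, against 11.5% of all genes; 10.2% of windows), and the interferon-stimulated response element (TTCNNTTTC) in 8 members (6.72%, against 8.18% of all genes; 7.13% of windows). Some genes have more than 1 window. The matches describe letters only and are not evidence of binding.

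With OVA, EKO-labelled cells had 51 members at a higher and 41 at a lower level than CtrV (edgeR quasi-likelihood, adjusted p under 0.05), while 65 were not called. The shares were 32.5% and 26.1%, against 25.1% and 21.9% of all genes tested. Without OVA, 51 members were higher and 40 lower, against 24.5% and 21.9% of all genes. The median log2 fold change of the members was near 0 with OVA (-0.0024, against 0.00064 for all genes), but the median absolute change was 0.29 against 0.21. Past an absolute log2 fold change of 1 were 17 members with OVA (10.8%, against 9.01% of all genes) and 18 without (11.5%, against 8.81%). The members moved in both directions, at shares somewhat above those of all genes. There were 8 members never above the expression limit in CtrV and 2 never above it in EKO-labelled libraries. These passed the limit through 1 line alone, and 9 of them were called with OVA, so their calls follow in part from the limit. Slc22a23, named here after its values were seen, was not called.

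**Figure D1:**
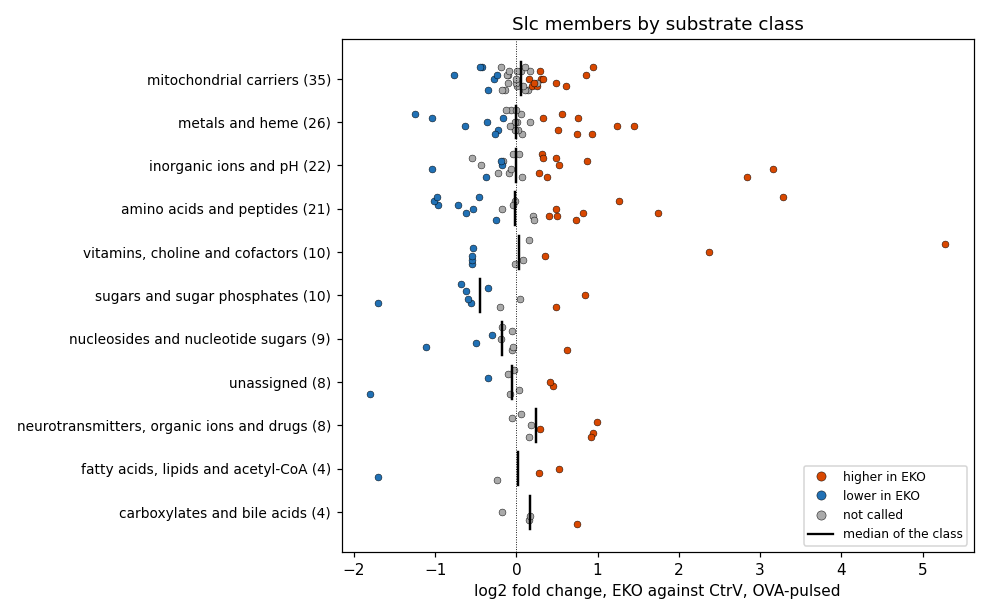
OVA-pulsed cells: log2 fold change, EKO-labelled over CtrV (x axis), of 157 members, 1 point each, by substrate class with the number of members in brackets. Colour gives the call at an adjusted p under 0.05 and the bar the class median; 6 of 10 sugar carriers were lower, and the largest rise was that of Slc44a5.

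The comparisons with and without OVA share no library. Called in the same direction in both comparisons were 46 higher and 35 lower members, 81 in all (51.6%, against 39.4% of all genes), and none was called in opposite directions. The 3 EKO-labelled libraries did not overlap with the 3 CtrV libraries for 97 members with OVA (51 higher, 46 lower; 52.9% of all genes did not overlap) and for 92 without (47.1% of all genes).

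**Figure D2:**
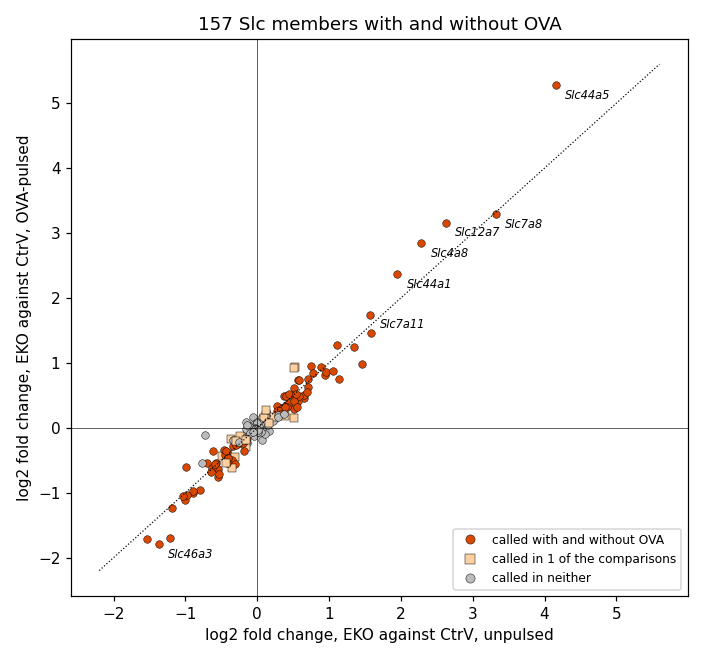
Log2 fold change of EKO-labelled over CtrV libraries without OVA (x axis) and with OVA (y axis), 1 point per member; the dotted line marks equal values. Of the 157 members, 81 were called in both comparisons, and Slc44a5 had the largest rise in each.

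The test of whether the line difference depended on pulsing called no member and 0% of all genes. At an unadjusted p under 0.05 it gave 3 members, against 1.91% of all genes, and DESeq2 called none, with 1 member at an unadjusted p under 0.05. Slc46a3, a lysosomal carrier, had the smallest p (0.00824, adjusted p = 1), with log2 fold changes of -1.80 with and -1.37 without OVA. OVA pulsing itself called no member in CtrV (0% of all genes; 2 members at an unadjusted p under 0.05, against 1.64%) and none in EKO-labelled cells (0%; 4 members, against 2.8%). DESeq2 called none in either line and gave 0 and 4 members at an unadjusted p under 0.05. The values below are therefore given for OVA-pulsed cells, with the unpulsed comparison beside them. Class counts below stand beside 25.1% higher and 21.9% lower of all genes tested with OVA.

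Of 21 carriers of amino acids and peptides, 8 were higher in EKO-labelled cells, 8 lower and 5 not called with OVA. Among the higher ones, Slc7a8 never passed the expression limit in CtrV. Slc7a11 (ENSMUSG00000027737, chromosome 3, 49892526 to 50443614, minus strand), the cystine importer whose promoter is printed above, was at 35.6, 17.2 and 18.5 CPM in CtrV replicates 1, 2 and 3 and at 88.85, 72.6 and 70.5 CPM in EKO-labelled ones. Every EKO-labelled library lay above every CtrV library, and the level was 3.34-fold higher (log2 fold change 1.74 ± 0.15 SE, adjusted p = 4.7e-06, n = 3). Without OVA the 3 CtrV libraries were at 20.8 to 23.8 CPM and the EKO-labelled ones at 54.6 to 76.4 CPM (log2 fold change 1.58 ± 0.15 SE, adjusted p = 1.15e-05).

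Slc3a2, the heavy chain that brings Slc7a11 and the other light chains to the cell surface, had 325.3, 252.3 and 302.3 CPM in CtrV against 271.3, 284.3 and 311.5 CPM in EKO-labelled cells. These values overlapped (log2 fold change -0.02 ± 0.12 SE, adjusted p = 0.898). Of its 5 light chains among the members, 3 were higher in EKO-labelled cells, 1 was lower and 1 was not called. The higher ones include Slc7a8, a member only through EKO-labelled libraries, so this count follows in part from the limit.

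Slc7a7 (ENSMUSG00000000958, chromosome 14), which exchanges cationic for neutral amino acids, was at 80.5, 60.95 and 58.5 CPM in CtrV against 193.2, 132.2 and 156.6 CPM in EKO-labelled libraries, 2.41-fold higher (log2 fold change 1.27 ± 0.12 SE, adjusted p = 1.27e-05). Slc7a8, a carrier of neutral amino acids named after its values were seen, was near the limit of detection in CtrV cells. Its membership rests on the EKO-labelled libraries, since no CtrV library passed the expression limit. It had 19 reads over the 3 CtrV libraries and 192 over the 3 EKO-labelled libraries, a ratio of 9.95 (exact 95% interval 6.2 to 16.9, counting error only; adjusted p = 2.19e-06). Slc7a6, a close relative of Slc7a7, was at 47.3 to 50.9 CPM and 47.6 to 48.6 CPM (log2 fold change -0.04 ± 0.06 SE, adjusted p = 0.593).

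The light chain with the highest level per kilobase of exon moved the other way. Slc7a5 (LAT1, the importer of leucine and other large neutral amino acids) had 789.2, 559.8 and 714.1 CPM in CtrV against 422.1, 469 and 533.3 CPM in EKO-labelled cells (log2 fold change -0.54 ± 0.17 SE, adjusted p = 0.022). The groups did not overlap, but the adjusted p was 0.108 without CtrV replicate 1, 0.0985 without EKO-labelled replicate 1 and 0.0581 without EKO-labelled replicate 3. In unpulsed cells the log2 fold change was -0.44 ± 0.17 SE (adjusted p = 0.0508).

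**Figure D3:**
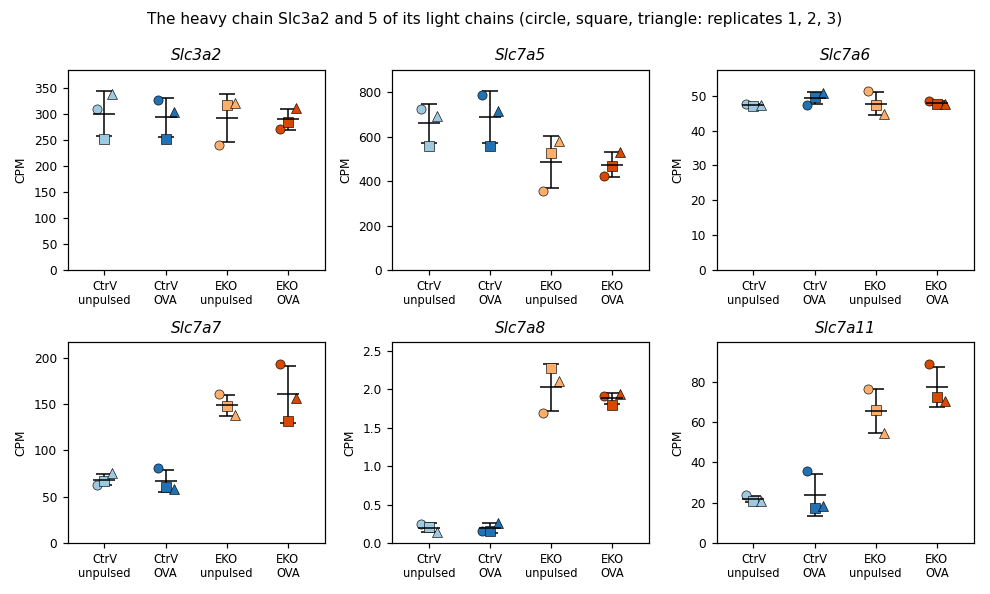
Level in CPM (y axes start at 0) of the heavy chain Slc3a2 and 5 light chains in the 12 libraries; points are libraries, the shape gives the replicate number, and bars give mean ± SD of 3 libraries. Slc7a7, Slc7a8 and Slc7a11 were higher in EKO-labelled cells, Slc7a5 lower with OVA, while Slc3a2 and Slc7a6 overlapped. Slc7a8 passed the expression limit only through EKO-labelled libraries.

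Other plasma membrane carriers of amino acids were mixed. Slc1a4, an exchanger of alanine, serine, cysteine and threonine, was at 34.3 to 53.4 CPM in CtrV against 71.0 to 81.4 CPM in EKO-labelled cells (log2 fold change 0.82 ± 0.18 SE, adjusted p = 0.00398). Its relative Slc1a5, the glutamine exchanger, was not called (log2 fold change -0.18 ± 0.07 SE, adjusted p = 0.0546), although it was lower without CtrV replicate 2 (0.035), with upper-quartile normalization (0.0219) or with the compared groups alone (0.0489). Slc43a2, a facilitative carrier of branched-chain and other large neutral amino acids, was at 100.8 to 106.0 CPM against 49.99 to 56.8 CPM, 1.97-fold lower (adjusted p = 1.36e-06).

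The arginine importer Slc7a1 had a log2 fold change of 0.41 in the direction of EKO-labelled cells (adjusted p = 0.0379), but was no longer called when CtrV replicate 2 (adjusted p = 0.187), CtrV replicate 3 (0.1), EKO-labelled replicate 2 (0.131) or EKO-labelled replicate 3 (0.133) was left out. Among the sodium-coupled neutral amino acid carriers, Slc38a1 was lower (241.7 to 247.7 against 171.5 to 182.7 CPM, log2 fold change -0.46 ± 0.07 SE, adjusted p = 0.00033). Slc38a2, which rises when amino acids are short in many cells, was at 118.2 to 154.1 CPM and 142.4 to 164.6 CPM (adjusted p = 0.205). Without both EKO-labelled libraries numbered 1, its log2 fold change was 0.36 (adjusted p = 0.000957). Slc38a6 of the same family was at 3.02 to 3.18 against 1.57 to 2.22 CPM (log2 fold change -0.62 ± 0.14 SE, adjusted p = 0.00371).

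The lysosomal amino acid carriers Slc38a9 and Slc36a1 were lower in EKO-labelled cells, whereas the peptide carriers Slc15a3 and Slc15a4 of the same compartment were higher. The contrast does not hold for all amino acid carriers. Slc38a7, of the family of Slc38a9, was higher (log2 fold change 0.49), a call lost in 10 of 16 refits. Slc38a9, the arginine sensor upstream of mTORC1, was at 49.5, 49.7 and 46.2 CPM in CtrV against 28.7, 32.7 and 27.45 CPM in EKO-labelled libraries (log2 fold change -0.71 ± 0.05 SE, adjusted p = 2.23e-06). Slc36a1, a proton-coupled exporter of small amino acids from lysosomes, fell from 7.86 ± 0.36 CPM (SD, n = 3) in CtrV to 4.03 ± 0.40 CPM (adjusted p = 4.23e-05). Slc36a4 of the same family was at 23.7 ± 0.90 against 11.8 ± 0.61 CPM (adjusted p = 2.55e-05).

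Slc15a3 and Slc15a4 carry histidine, short peptides and bacterial muramyl peptides out of endolysosomes, and are expressed in antigen-presenting cells. Slc15a3 (ENSMUSG00000024737, chromosome 19, 10839727 to 10859362, plus strand), the second most abundant member per kilobase of exon, was at 992.0, 827.9 and 805.3 CPM in CtrV against 1504, 1456 and 1409 CPM in EKO-labelled cells. The groups did not overlap, and the level was 1.67-fold higher (log2 fold change 0.74 ± 0.07 SE, adjusted p = 7.58e-06). Tmem132a on the opposite strand covers 28.1% of its exon bases, and strand use in the counting is not stated in the sources used here. Slc15a4 was at 33.6 to 43.1 CPM against 47.4 to 60.2 CPM (log2 fold change 0.50 ± 0.08 SE, adjusted p = 0.000531).

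Genes that report on amino acid supply and oxidative stress were counted beside these carriers. Of 20 such genes listed, 19 were tested, of which 10 were higher in EKO-labelled cells and 1 (Gclm) lower with OVA, with a median log2 fold change of 0.50. Of all genes tested, 25.1% were higher and 21.9% lower. Asns, the asparagine synthetase, was at 99.5 ± 21.5 CPM in CtrV against 179.9 ± 33.0 CPM in EKO-labelled cells (SD, n = 3; adjusted p = 0.016). Phgdh, the first enzyme of serine synthesis, was at 1.47 ± 0.25 against 9.79 ± 2.94 CPM (adjusted p = 7.5e-06), whereas Atf4 was at 202.4 ± 16.0 against 256.1 ± 41.3 CPM (adjusted p = 0.14).

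Metal and heme carriers formed the second largest class, with 8 of 26 members higher, 7 lower and 11 not called with OVA. Slc31a2 (ENSMUSG00000066152, chromosome 4, 62262562 to 62298411, plus strand), an endolysosomal relative of the copper importer Slc31a1, had the smallest p of all members. It was at 21.0, 23.1 and 21.3 CPM in CtrV against 63.6, 58.4 and 56.7 CPM in EKO-labelled libraries, with no overlap (log2 fold change 1.45 ± 0.07 SE, adjusted p = 6.77e-08; 1.58 ± 0.07 SE without OVA). Slc31a1 itself was at 98.6 ± 3.9 against 84.3 ± 4.8 CPM (SD, n = 3; log2 fold change -0.23, adjusted p = 0.00984), and lost this call without CtrV replicate 3 (adjusted p = 0.0609) or EKO-labelled replicate 3 (0.0603).

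Slc48a1 (ENSMUSG00000081534, chromosome 15, 97778520 to 97792692, plus strand), which releases heme from lysosomes, was at 236.6, 254.8 and 261.1 CPM in CtrV against 122.5, 128.5 and 114.6 CPM in EKO-labelled cells. It was 2.06-fold lower (log2 fold change -1.04 ± 0.06 SE, adjusted p = 4.54e-07), and unpulsed libraries showed the same separation, with 236.0 to 259.1 against 121.8 to 127.1 CPM. Iron carriers had smaller changes at lower levels. The divalent metal importer Slc11a2 was at 50.5 to 63.9 CPM in CtrV against 76.5 to 83.9 CPM in EKO-labelled cells (log2 fold change 0.51 ± 0.09 SE, adjusted p = 0.000771). Slc11a1, the phagosomal iron and manganese carrier known from resistance to intracellular microbes, was at 1.99 to 2.48 against 2.95 to 4.69 CPM (log2 fold change 0.74 ± 0.19 SE, adjusted p = 0.00867; 0.061 without CtrV replicate 2 and 0.0517 without EKO-labelled replicate 2). The iron exporter Slc40a1 was at 1.03 to 1.62 against 2.01 to 2.89 CPM (log2 fold change 0.93 ± 0.26 SE, adjusted p = 0.0125; 0.0713 without CtrV replicate 2 and 0.0623 without EKO-labelled replicate 2), and was not called without OVA (adjusted p = 0.129).

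Zinc carriers were mixed in direction. Slc39a7, which lets zinc out of the endoplasmic reticulum, was at 81.5, 77.6 and 85.4 CPM in CtrV against 131.1, 137.6 and 143.8 CPM in EKO-labelled libraries (log2 fold change 0.75 ± 0.05 SE, adjusted p = 6.18e-07). Slc30a1, the zinc exporter of the plasma membrane and a target of MTF1, was at 17.7, 18.3 and 14.7 CPM in CtrV against 9.51, 12.3 and 11.2 CPM (log2 fold change -0.63 ± 0.10 SE, adjusted p = 0.000552). The printed Slc30a1 promoter holds 1 metal response element, 43 to 37 bases before the start.

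Among importers of zinc at the cell surface, Slc39a4 was at 1.63 to 1.76 CPM in CtrV against 3.79 to 4.48 CPM in EKO-labelled cells (log2 fold change 1.24 ± 0.12 SE, adjusted p = 1.67e-05), and Slc39a10 was 1.25-fold higher (adjusted p = 0.00218). The opposite was seen for Slc39a8, which rises with inflammation in many cells: it was at 1.65 to 2.05 CPM in CtrV against 0.705 to 0.835 CPM in EKO-labelled cells, never above the expression limit there (log2 fold change -1.24 ± 0.16 SE, adjusted p = 0.000111). Slc39a14, its close relative, had a log2 fold change of -0.27 (adjusted p = 0.0398) and lost this call in 5 of 6 fits that left out 1 library, the highest adjusted p being 0.207 without CtrV replicate 3. Of 6 members of the zinc exporter family Slc30, 4 were not called and 2 were lower with OVA.

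**Figure D4:**
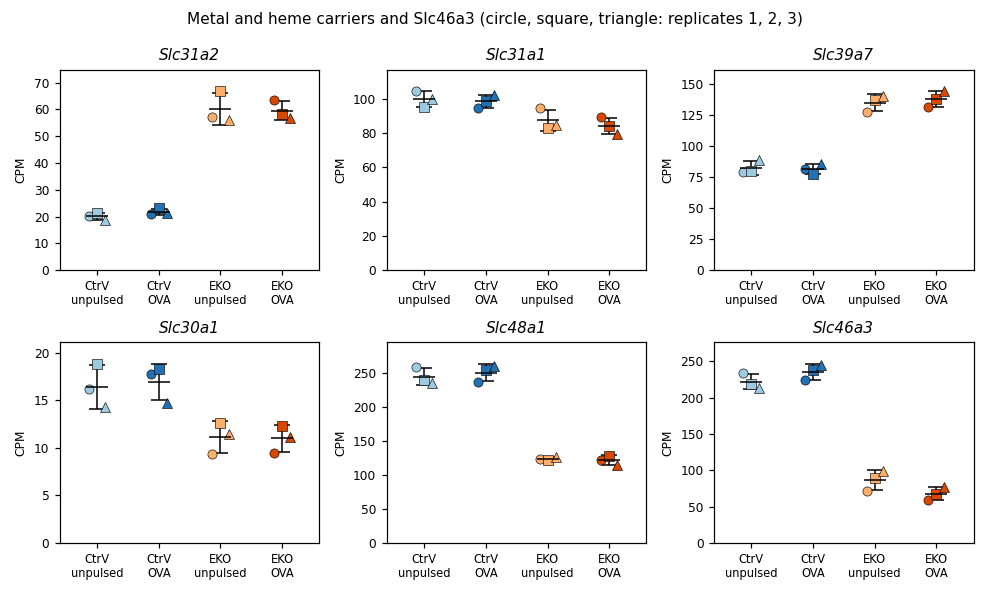
Level in CPM (y axes start at 0) of 5 metal and heme carriers and of Slc46a3 in the 12 libraries; points are libraries, the shape gives the replicate number, and bars give mean ± SD of 3 libraries. Slc31a2 and Slc39a7 were higher and Slc30a1, Slc48a1 and Slc46a3 lower in EKO-labelled cells with and without OVA.

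Of 22 iron, zinc and copper genes listed as partners of these carriers, 17 were tested, of which 3 were higher and 8 lower with OVA (25.1% and 21.9% of all genes). The metallothioneins Mt1 and Mt2, zinc-storing targets of MTF1, had log2 fold changes of -1.91 ± 0.13 SE and -2.27 ± 0.21 SE (adjusted p = 8.5e-07 and 1.2e-05). Tfrc, the transferrin receptor, was at 725.3 ± 17.9 against 331.8 ± 61.3 CPM (adjusted p = 5.6e-05), and Fth1 was also lower (log2 fold change -0.32 ± 0.08 SE, adjusted p = 0.0067). The 3 higher partners were Mtf1 itself (log2 fold change 0.23 ± 0.07 SE, adjusted p = 0.025), Ncoa4 (0.40 ± 0.05 SE, 0.00011) and Fbxl5 (0.45 ± 0.04 SE, 1.5e-05).

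Mitochondrial carriers, all of the Slc25 family, were the largest class, with 11 of 35 higher, 6 lower and 18 not called with OVA. Per kilobase of exon, Slc25a5, which exchanges ADP and ATP across the inner membrane, was the most abundant of all members. It was at 407.3 to 443.1 CPM in CtrV against 349.8 to 361 CPM in EKO-labelled cells (log2 fold change -0.24 ± 0.05 SE, adjusted p = 0.00243). Its relative Slc25a4 was not called with OVA (adjusted p = 0.158).

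Carriers of glutamate and aspartate moved unequally. Slc25a22, which imports glutamate, was at 28.4 to 31.4 CPM in CtrV against 48.3 to 58.8 CPM in EKO-labelled cells (log2 fold change 0.86 ± 0.13 SE, adjusted p = 0.000312). The aspartate-glutamate exchanger Slc25a12 was at 254.7 to 259.7 against 314.1 to 321.1 CPM (log2 fold change 0.30 ± 0.05 SE, adjusted p = 0.000421), whereas the other exchanger of that kind, Slc25a13, was at 6.64 to 7.55 against 3.81 to 4.72 CPM (log2 fold change -0.77 ± 0.11 SE, adjusted p = 0.000235).

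Among carriers of carboxylates, phosphate, carnitine and glutathione, 4 of 7 were higher and 1 was lower. The dicarboxylate carrier Slc25a10 was at 50.6 ± 0.59 CPM in CtrV against 77.5 ± 7.8 CPM in EKO-labelled cells (SD, n = 3; adjusted p = 8.17e-05), while the citrate carrier Slc25a1 was not called (log2 fold change 0.14 ± 0.07 SE, adjusted p = 0.108). Slc25a33, which brings pyrimidine nucleotides into mitochondria, was at 8.01 to 8.18 against 14.9 to 17.0 CPM (log2 fold change 0.95 ± 0.14 SE, adjusted p = 0.000305). Gm13068 on the opposite strand covers 14.9% of its exon bases. The iron importer Slc25a28 was called at the limit (log2 fold change 0.26 ± 0.10 SE, adjusted p = 0.0497), and 12 of 16 alternatives lost that call, among them the fits without CtrV replicate 2 (0.295) or 3 (0.133) and without EKO-labelled replicate 2 (0.189) or 3 (0.147).

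Of 22 carriers of inorganic ions and protons, 9 were higher and 4 lower with OVA, and the large rises were at low levels. Slc12a7, a potassium-chloride cotransporter, had 2, 3 and 5 reads in the CtrV libraries and 26, 34 and 33 reads in the EKO-labelled ones, a ratio of 9.16 (exact 95% interval 4.76 to 19.7, counting error only; adjusted p = 5.06e-05). The bicarbonate carrier Slc4a8 had 9, 8 and 7 reads against 88, 24 and 70, a ratio of 7.47 (interval 4.86 to 12; adjusted p = 0.000604). Neither rose above the expression limit in any CtrV library, so their membership itself rests on the EKO-labelled cells.

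Abundant ion carriers differed less. Slc4a7, a sodium bicarbonate cotransporter that also serves phagosome acidification in macrophages, was at 210.0 to 219.8 CPM in CtrV against 251.0 to 284.1 CPM in EKO-labelled cells (log2 fold change 0.31 ± 0.07 SE, adjusted p = 0.00268). The potassium-chloride cotransporter Slc12a4 had a log2 fold change of -0.38 ± 0.05 SE (adjusted p = 0.000225). The sulfate carrier Slc26a11 was not called (adjusted p = 0.888). Of the phosphate importers, Slc20a2 was higher (log2 fold change 0.48 ± 0.08 SE, adjusted p = 0.000607) and Slc20a1, at a higher level per kilobase of exon (33.6 against 2.08 CPM), was not called (-0.17 ± 0.08 SE, adjusted p = 0.0954), although it was without CtrV replicate 2 (0.0445) or EKO-labelled replicate 2 (0.0175).

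Slc44a5, of the choline carrier family Slc44, had the largest log2 fold change of all members, and it passed the expression limit only through EKO-labelled libraries. Choline is the precursor of phosphatidylcholine, the main phospholipid of membranes. Slc44a5 (ENSMUSG00000028360, chromosome 3, 153973436 to 154271722, plus strand) had 3, 3 and 1 reads in the CtrV libraries and 159, 49 and 85 reads in the EKO-labelled ones, or 2.78 ± 1.30 CPM (SD, n = 3). The ratio was 41.2 (exact 95% interval 19.8 to 103, counting error only; adjusted p = 1.36e-06), and EKO-labelled replicate 1 was the highest of its group with and without OVA.

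Slc44a1, the choline importer of most cells, was at 0.917, 0.724 and 0.728 CPM in CtrV against 3.84, 3.31 and 5.41 CPM in EKO-labelled cells (log2 fold change 2.37 ± 0.19 SE, adjusted p = 3.71e-06). Its highest CtrV library was unpulsed replicate 3 (1.06 CPM). Too few CtrV libraries passed the expression limit, so the membership of Slc44a1 also rests on EKO-labelled libraries. The remaining choline carrier, Slc44a2, has the highest level per kilobase of exon of the family (5.59 CPM per kilobase, against 0.305 for Slc44a1 and 0.173 for Slc44a5, means of 12 libraries) and went the other way, with 56.9 ± 3.4 against 39.1 ± 1.7 CPM (SD, n = 3; log2 fold change -0.54 ± 0.06 SE, adjusted p = 2.34e-05).

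Vitamin importers went in both directions. Slc19a1, the reduced folate carrier, was at 5.59 ± 0.32 against 3.82 ± 0.33 CPM (SD, n = 3; log2 fold change -0.54 ± 0.10 SE, adjusted p = 0.00138). The thiamine importer Slc19a2 and the biotin and pantothenate importer Slc5a6 had log2 fold changes of -0.54 ± 0.12 SE and -0.55 ± 0.13 SE (adjusted p = 0.00435 and 0.0061). The ascorbate importer Slc23a2 was higher, at 76.5 to 83.7 against 98.2 to 103.2 CPM (adjusted p = 0.00109), and the riboflavin carriers Slc52a2 (adjusted p = 0.825) and Slc52a3 (adjusted p = 0.756) were not called. The proton-coupled folate carrier Slc46a1 stayed at or below 1.03 CPM in OVA-pulsed cells and was not called (adjusted p = 0.66).

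Sugar carriers had the largest share of lower members of any class: 6 of 10 were lower, 2 higher and 2 not called with OVA, with a median log2 fold change of -0.45. Without OVA the counts were 7 lower and 2 higher. Among the 6 lower with OVA, Slc2a9 (log2 fold change -0.60) lay near the expression limit and lost its call in 10 of 16 refits. Its adjusted p was 0.141 with DESeq2. Slc37a4 lost its call in 1 refit. Slc45a4 was at 70.55 to 73.3 CPM in CtrV against 44.4 to 45.9 CPM in EKO-labelled cells (log2 fold change -0.68 ± 0.06 SE, adjusted p = 6.25e-06). Slc37a3, of the sugar-phosphate exchanger family, was at 29.4 to 35.2 against 19.0 to 23.0 CPM (adjusted p = 7.66e-06), and the glucose-6-phosphate carrier of the endoplasmic reticulum, Slc37a4, was 1.28-fold lower (adjusted p = 0.00195). The inositol carrier Slc5a11 was at 1.96 to 3.01 against 0.583 to 0.964 CPM (log2 fold change -1.71 ± 0.22 SE, adjusted p = 9.19e-05).

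The sugar carriers that were higher, Slc2a6 and Slc37a2, are both known from macrophages. Slc2a6, a lysosomal hexose carrier induced by LPS in macrophages, was at 397.7, 354.5 and 359.3 CPM in CtrV against 506.5, 526.2 and 524.6 CPM in EKO-labelled libraries (log2 fold change 0.485 ± 0.08 SE, adjusted p = 0.000719). Slc37a2, a sugar-phosphate exchanger, was at 24.4 ± 1.1 against 43.9 ± 0.12 CPM (SD, n = 3; log2 fold change 0.85 ± 0.07 SE, adjusted p = 5.89e-06). Macrophage markers were summed at a higher level in the same libraries, as given above, and their part in these differences was not tested.

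Of 9 carriers of nucleosides and nucleotide sugars, 1 was higher and 3 were lower. The adenosine and uridine carrier Slc29a1 was at 26.3 to 31.4 against 19.6 to 23.1 CPM (log2 fold change -0.50 ± 0.06 SE, adjusted p = 9.19e-05). Slc29a3 of lysosomes had a log2 fold change of -0.30 ± 0.09 SE (adjusted p = 0.0186), which was lost without CtrV replicate 1 (0.0795) or 3 (0.0629) and without EKO-labelled replicate 1 (0.0642) or 3 (0.0547). The nucleotide sugar carriers Slc35a2, Slc35a3 and Slc35a5 of the Golgi apparatus were not called (log2 fold changes of -0.18 to -0.06).

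Of 4 carriers of fatty acids, lipids and acetyl-CoA, Slc27a2 (chromosome 2), an acyl-CoA synthetase for very long chain fatty acids, fell most. It was at 8.18, 10.1 and 9.84 CPM in CtrV against 3.11, 2.92 and 2.49 CPM in EKO-labelled cells (log2 fold change -1.71 ± 0.14 SE, adjusted p = 3.78e-06). Slc33a1, which carries acetyl-CoA into the endoplasmic reticulum, was 1.43-fold higher (adjusted p = 0.00112); Gm26850 on the opposite strand covers 32% of its exon bases. The fatty acid carrier Slc27a1 was not called (log2 fold change -0.24 ± 0.12 SE, adjusted p = 0.119).

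Of 8 carriers of neurotransmitters, organic ions and drugs, 4 were higher and none lower. Among the higher ones, Slc18a1 and Slc6a12 never passed the expression limit in CtrV. Their membership rests on EKO-labelled libraries, so the direction of this class follows in part from the limit. The call of Slc22a21 was lost in 10 of 16 refits. Slc22a15 of the same family, named after its values were seen, was not placed in this class. It was lower (log2 fold change -0.35) and kept that call in every refit, so the absence of lower members depends on the class assignment. The creatine importer Slc6a8 was at 2.35, 2.29 and 2.19 CPM in CtrV against 6.03, 3.08 and 3.99 CPM in EKO-labelled cells (log2 fold change 0.92 ± 0.20 SE, adjusted p = 0.00334). EKO-labelled replicate 1 was highest, and without both EKO-labelled libraries numbered 1 the log2 fold change was 0.62 (adjusted p = 0.0086). The taurine importer Slc6a6, the member of this class with the highest level per kilobase of exon, was not called (adjusted p = 0.49).

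Of 4 carboxylate and bile acid carriers, only Slc13a2, a dicarboxylate carrier, was called with OVA. It was at 0.378 to 0.828 CPM in CtrV against 0.81 to 1.075 CPM in EKO-labelled libraries, which overlapped (log2 fold change 0.74 ± 0.23 SE, adjusted p = 0.0225). Slc13a2 never passed the expression limit in CtrV, so its membership rests on the EKO-labelled libraries. Its call was lost in 5 of 6 fits that left out 1 OVA-pulsed library (adjusted p up to 0.108, without CtrV replicate 1). Slc17a5 (sialin), which exports sialic acid from lysosomes, was at 11.85 to 12.31 CPM in CtrV against 10.5 to 10.8 CPM in EKO-labelled cells. The groups did not overlap, but the call was not made with OVA (log2 fold change -0.18 ± 0.07 SE, adjusted p = 0.0711), whereas it was without OVA (-0.37 ± 0.08 SE, adjusted p = 0.00236).

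Of 8 members with no class assigned, Slc46a3 (ENSMUSG00000029650, chromosome 5, 147878437 to 147894815, minus strand), a lysosomal membrane carrier, had the largest fall of all members with OVA. It was at 223.9, 238.7 and 244.8 CPM in CtrV against 59.4, 68.2 and 76.6 CPM in EKO-labelled cells, 3.48-fold lower (log2 fold change -1.80 ± 0.10 SE, adjusted p = 1.84e-07). Unpulsed EKO-labelled libraries were at 71.9 to 98.9 CPM against 213.0 to 233.8 CPM in CtrV.

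Several members reside in endosomes and lysosomes, where antigen is processed, and they were grouped only after their values were seen. The grouping may be incomplete. With OVA, Slc15a3, Slc15a4, Slc2a6, Slc11a1 and Slc31a2 were higher in EKO-labelled cells. Slc46a3, Slc48a1, Slc36a1, Slc38a9 and Slc29a3 were lower, and Slc17a5 was not called.

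**Figure D5:**
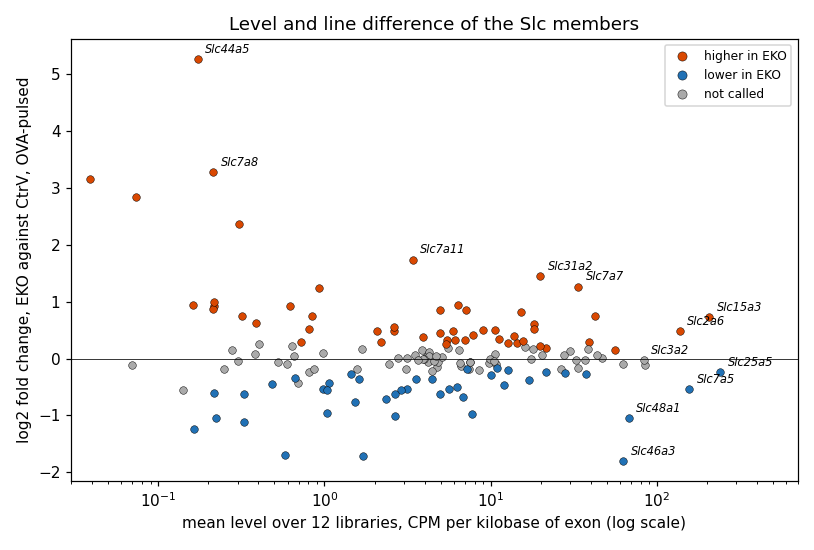
Mean level over 12 libraries in CPM per kilobase of exon (x axis, log scale) against log2 fold change with OVA (y axis), 1 point per member, coloured by call. The rises above a log2 fold change of 2 lie at the low end of the scale; Slc15a3 and Slc2a6 are the higher and Slc25a5 and Slc7a5 the lower members among the 4 most abundant.

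Related carriers with other symbols, such as Mpc1, Flvcr1 and the Slc35b to Slc35f genes, gave 10 higher and 12 lower among 44 tested of 50 listed with OVA. Of the 7 carriers set aside by the rule, 5 were tested, 4 were lower and none higher with OVA. Both counts stand beside 25.1% higher and 21.9% lower of all genes tested, and the related carriers lay near these shares.

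Without both EKO-labelled libraries numbered 1, a setting chosen after seeing the data, 46 of the 51 higher and 35 of the 41 lower members were still called in the same direction. At the same adjusted p limit of 0.05, the OVA comparison was refitted in up to 16 ways, with other normalizations, filters, models or OVA-pulsed libraries left out in turn. In each refit that could include them, 31 higher and 30 lower members were called, and none changed direction while called. Stricter limits on p or fold change are not counted among these refits. Of the 157 members, 11 share over 10% of their exon bases with a gene on the opposite strand, and their reads cannot be told apart from that gene's without knowing the strand setting.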

How the data were processed

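The authors deposited raw counts per gene for 12 RNA-seq libraries. Per the paper's methods and the submitters' processing notes, reads were aligned to mm10 with STAR, sorted with SAMtools, and read ends were counted on exon unions of Ensembl genes with featureCounts; strand use in counting is not given in the sources used here. Symbols and positions came from GENCODE vM21 (GRCm38), which is not the authors' annotation.

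Counts were fitted with edgeR 4.0.16 in R 4.3.3 (TMM, quasi-likelihood, group and replicate number as covariates, after the paper's design), with Benjamini-Hochberg adjustment over 14079 genes. Standard errors are the log2 fold change divided by the square root of F. CPM use TMM-scaled library sizes; 3 counts, the floor, equal 0.0784 to 0.11 CPM. Alternatives were DESeq2 1.42.0, other normalizations, filters, thresholds and left-out libraries. Scripts were tested on simulated counts. The replicate number paired the OVA-pulsed libraries between lines (correlations of same-numbered deviations 0.448, 0.292 and 0.289) but not the unpulsed ones (0.0602, -0.0118 and 0.263); where the pairing comes from is not described. No pair of replicates agreed within sampling noise (chi-square per degree of freedom 4.29 to 38.3).

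Members, classes, lists and the naming rule were chosen with earlier results of these data known. Named were members called with OVA at a mean log2 CPM of at least 1 (12 largest rises, 12 largest falls), the smallest p in each class and textbook members; members outside this rule, such as Slc7a6, Slc7a8, Slc4a8, Slc5a11 and Slc6a6, were named after their values were seen. Some items are not reported here.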

Additional observations from a re-analysis of the deposited data

How the results depend on the processing

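With OVA, 51 higher and 41 lower members became 45 and 36 without the replicate block, 46 and 37 with DESeq2, and 38 to 45 and 33 to 39 when single OVA-pulsed libraries were left out. Leaving out a single unpulsed library, which enters only through the shared fit, gave 86 to 95 members called with OVA in all. Without OVA, 51 and 40 became 49 and 38 without the block, 50 and 38 with DESeq2, and 44 to 53 and 32 to 40 with single unpulsed libraries left out. Requiring an absolute log2 fold change of 1 moved counts by over 1.5 times, to 9 higher and 8 lower with OVA and 12 and 6 without, by its construction. Calls of pulsing and of the dependence on pulsing stayed at 0 in every fit. Leaving out both EKO libraries numbered 1, leaving out all libraries numbered 3, and bias-adjusted deviances were added after seeing the data: they gave 50, 37 and 50 higher and 39, 30 and 41 lower members with OVA. Of the 92 members called with OVA, 31 lost the call in at least 1 of up to 16 refits at the same limits, and 15 others gained it; the stricter fold limit above and an adjusted p under 0.01 (36 higher, 33 lower) are not counted there. No call changed direction. The block changed calls of the named Slc13a2, Slc25a28 and Slc39a14 (adjusted p = 0.0525, 0.124 and 0.0753 without it). Depth limits members near 3 counts, such as Slc44a5 in CtrV cells. No outlier was tested, since each group holds 3 libraries.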
